A study of Drosophila melanogaster with 23 samples.

Results

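The vacuolar proton pump (V-ATPase) is an enzyme of many subunits, and 23 of the 11152 features of the deposited table are genes for its parts. They are the rows whose symbol starts with Vha, and one of them, listed as VhaM8.9, is the gene now named ATP6AP2. Of these genes, 10 encode subunits of V1, the sector in the cytosol that hydrolyses ATP, 11 encode subunits of V0, the sector in the membrane that passes protons, and 2 encode accessory proteins. On general knowledge of the family, 18 were taken as broadly expressed subunits, and 5 (Vha36-3, Vha100-4, Vha100-5, VhaAC39-2 and VhaM9.7-c) as paralogs, extra copies of a subunit gene. Another 10 subunit genes of the fly genome were not found in the table: Vha68-3, Vha36-2, Vha14-2, Vha100-3, Vha16-2, Vha16-3, Vha16-4, Vha16-5, VhaPPA1-2 and VhaM9.7-d. The table holds no value of 0, so genes with no counts in some library may be missing from it. Statements on differences between the sexes thus cover the measured genes only.

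RNA was sequenced from whole bodies of virgin w1118 flies, a white-eyed laboratory strain of Drosophila melanogaster, each library being a pool of 10 flies of one sex. All flies were reared at 24 °C and moved as young adults to 18, 24 or 28 °C. There were 11 male libraries (4 each at 18 and 24 °C, and 3 at 28 °C) and 12 female libraries (4 at each temperature). Flies at 18 and 24 °C were 45 days old and flies at 28 °C were 35 days old when frozen, so the effects of 28 °C and of age cannot be told apart. In whole flies, a lower level can also mean fewer cells of the type that uses a gene or less RNA in each such cell, which bulk samples do not separate.

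In the V-ATPase, the A and B subunits of V1 form the ring that splits ATP, the stalk subunits carry the rotation to the membrane, and the a subunit and the ring of c subunits of V0 let protons pass. The pump acidifies lysosomes, endosomes and synaptic vesicles in every animal cell that has them. In insects it also sits in the apical membrane of transporting epithelia such as the Malpighian tubule, the insect kidney, and in the acid-secreting copper cells of the midgut. Several subunits have extra genes in the fly, and some of these are known from the testis.

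Totals of expected counts lay between 17727137 and 20119003 in the 11 male libraries and between 21998441 and 23194619 in the 12 female libraries, so depth and sex change together. Levels are given as CPM (counts relative to the library total), scaled with edgeR's TMM factors, and libraries are named by their replicate number in the labels. Of the 23 genes, 22 had at least 0.5 CPM in every library and entered the tests with 9698 features in all, and VhaAC39-2 did not. The sex markers went with the labels, since 5 ovary germline genes summed to 34.9 to 79.8 CPM in males and 1317 to 2001 CPM in females. Male 18 °C library 3, male 24 °C library 1 and female 28 °C library 1 stood apart in several subunit genes and in midgut markers, and values without them are given below. These libraries were thus picked in part on the subunit genes themselves. Counts of calls without them are given without the share of all features called in the same fit, and are a description. The same holds for counts of calls under each alternative setting, such as another scaling, filter or set of libraries. The scaling matters here. The median log2 difference of all features between the sexes was 0.13 with TMM, 0.08 with DESeq2 and 0.05 with library totals. Over the choice of library as TMM reference it ran from -0.07 to 0.14, so the TMM value used lay near the upper end. The same was so for females at 28 against 18 °C, with -0.01 in a range of -0.25 to 0.005. Differences are therefore also set against the median of all features.

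Levels of different genes were compared per kilobase of annotated exon. Vha16-1, the gene for the c subunit of the proton ring, had the highest level, with 676 CPM per kb on average over the 23 libraries, followed by Vha13 (subunit G, 362 CPM per kb) and Vha55 (subunit B, 280.5 CPM per kb). The ranges of Vha13 and Vha55 over the libraries overlapped, at 284 to 434 and 226 to 341 CPM per kb, as did those of Vha55 and Vha26 (subunit E, 201 to 295 CPM per kb). The lowest levels per kb were those of 2 paralogs, VhaAC39-2 (3.73 CPM per kb) and Vha100-4 (3.02 CPM per kb). Vha68-1, the second gene for the A subunit, averaged 36.4 CPM per kb, against 208 CPM per kb for Vha68-2.

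**Figure D1:**
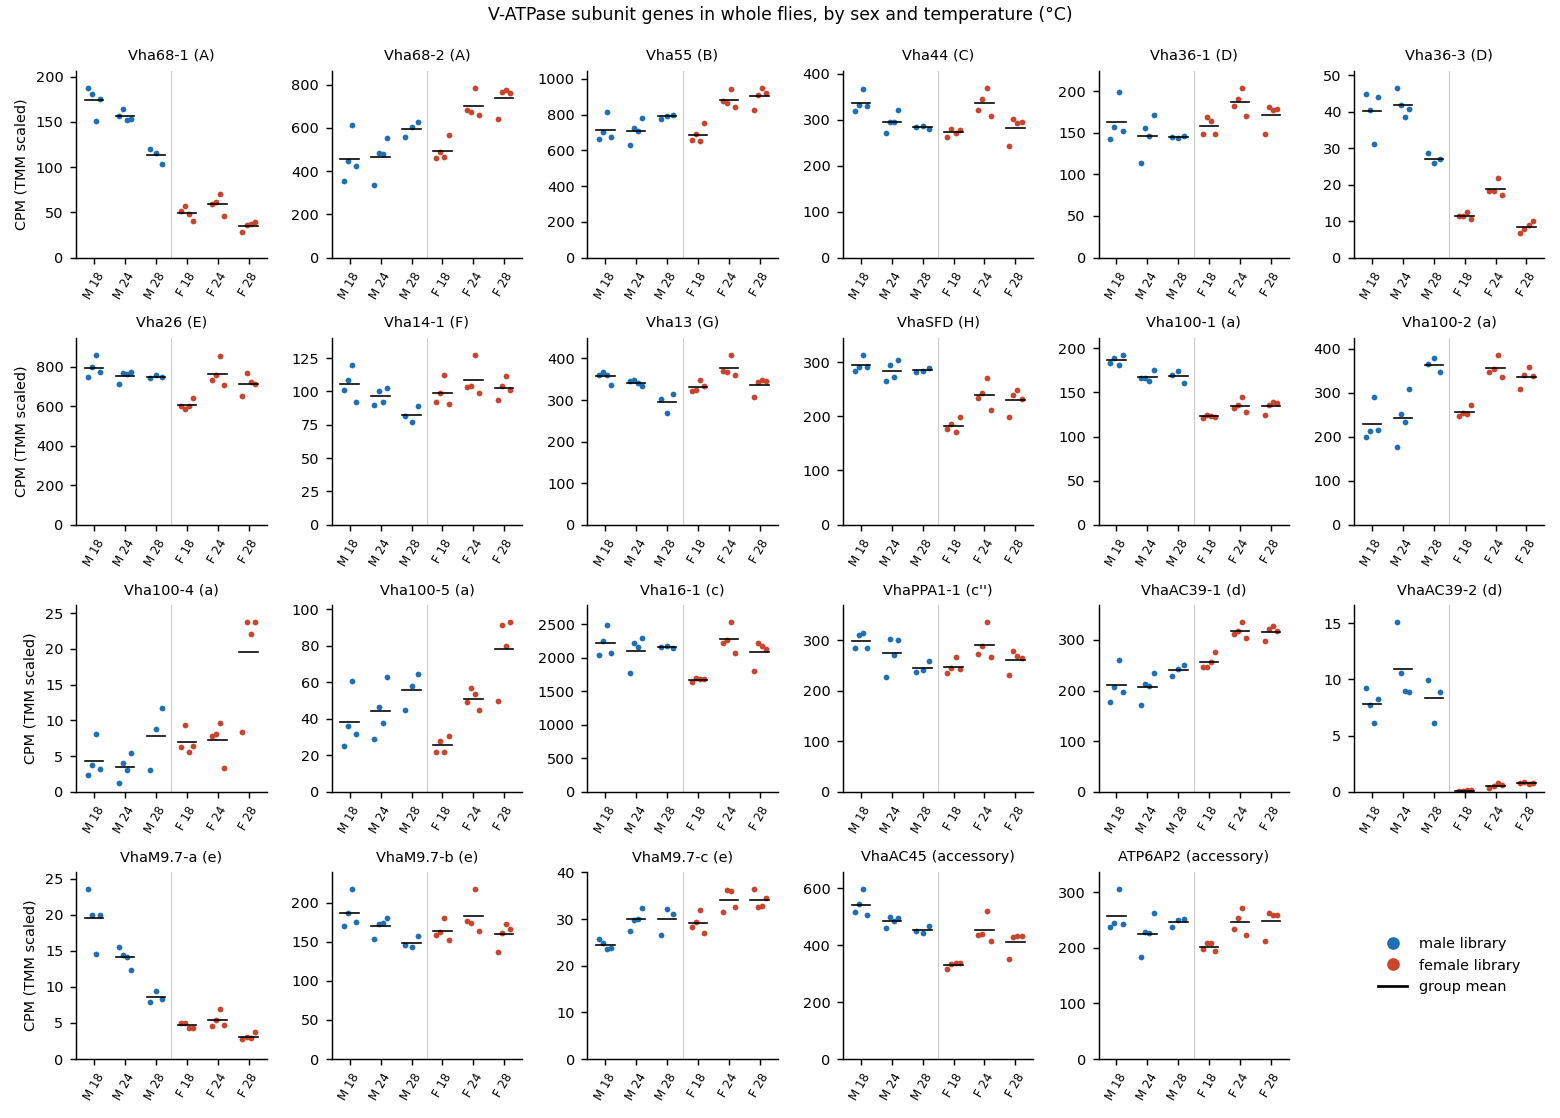
Level of each of the 23 V-ATPase subunit genes in every library, in CPM scaled with TMM factors (vertical axes start at 0), by sex (M male, F female) and temperature in °C. Points are libraries, lines are group means, and the letter after each symbol is the subunit. Vha68-1, Vha36-3, VhaM9.7-a and VhaAC39-2 are higher in every male library than in any female library, and most other subunits overlap between the sexes.

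The first comparison asks which subunit genes differ between males and females. Of the 22 genes tested, the largest log2 differences were in 3 genes with another copy in their class, which stood 2.94- to 3.11-fold higher in males: Vha68-1 (subunit A), Vha36-3 (subunit D) and VhaM9.7-a (subunit e, a small membrane protein of V0). Averaged over temperatures, 12 of the 22 genes were called, that is, had a Benjamini-Hochberg adjusted p under 0.01 over 9698 features in the quasi-likelihood test of edgeR, 7 higher and 5 lower in males. The background was high, since 86.7% of all features passed (47.2% higher and 39.5% lower in males). The 22 genes had a median log2 difference of 0.02, against 0.13 for all features, and 7 of the 22 lay above that median. The count of 7 was the same with DESeq2 and library totals. A change of scaling moves the genes and the median together, so that sameness is no check on the scaling. All but Vha26 and VhaAC45 of the 12 calls held in each of the 53 settings run, which include every choice of TMM reference and every library left out.

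Vha68-1 lies on chromosome 2L (13000770 to 13004107, dm6), 22162 bp from its paralog Vha68-2. In males it had 188, 181, 152 and 175 CPM at 18 °C, 157, 164, 153 and 153 CPM at 24 °C, and 119.7, 116 and 104 CPM at 28 °C. In females it had 51.7, 57.5, 48.0 and 40.9 CPM at 18 °C, 58.8, 61.6, 70.5 and 45.7 CPM at 24 °C, and 28.7, 35.7, 37.3 and 39.5 CPM at 28 °C. The lowest male library thus lay above the highest female library, and in both sexes the libraries at 28 °C were the lowest. The log2 difference was 1.63 ± 0.07 (SE), a 3.10-fold higher level in males (edgeR adjusted p = 1.89e-15), and 1.504 above the median of all features.

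Vha36-3, a paralog of the D subunit of the central stalk, lies on the X chromosome (2579091 to 2580560). It had 44.8, 40.4, 31.3 and 44.1 CPM in males at 18 °C, 46.6, 41.9, 38.7 and 40.8 CPM at 24 °C, and 28.6, 26.0 and 27.0 CPM at 28 °C. Females had 11.4, 11.5, 12.4 and 10.7 CPM at 18 °C, 18.3, 18.2, 22.0 and 17.2 CPM at 24 °C, and 6.62, 7.76, 8.87 and 9.98 CPM at 28 °C. The sexes did not overlap, and the highest female levels were those at 24 °C. The log2 difference of males over females was 1.55 ± 0.07 (SE; edgeR adjusted p = 4.41e-15).

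VhaM9.7-a (chromosome 3L, 4262705 to 4263464) had the lowest level of the 3 genes per exon length, 13.0 CPM per kb over all libraries against 36.4 for Vha68-1 and 19.0 for Vha36-3. Its male levels were 23.6, 19.96, 14.6 and 19.9 CPM at 18 °C, 15.6, 14.5, 14.2 and 12.3 CPM at 24 °C, and 7.89, 9.45 and 8.36 CPM at 28 °C. Its female levels were 4.98, 4.96, 4.34 and 4.31 CPM at 18 °C, 4.61, 5.35, 6.97 and 4.66 CPM at 24 °C, and 2.77, 3.00, 2.91 and 3.76 CPM at 28 °C. Every male library was higher than every female library, with a log2 difference of 1.64 ± 0.09 (SE; edgeR adjusted p = 9.0e-14). It had been taken as broadly expressed, as had Vha68-1, so the male excess was not limited to the genes classed as paralogs. That classing came from general knowledge, and VhaM9.7-a stood below VhaM9.7-c, which was classed as a paralog (35.7 CPM per kb). The statement thus depends on the classing. The summed level of 5 neuron markers (elav, nSyb, Syt1, brp and Syx1A) also stood higher in males, at 479.6 to 776 CPM against 177 to 341 CPM in females, and the part of this in the excess of the 3 genes was not tested.

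Vha100-1, one of the genes for the a subunit and known for its role at the synapse, was the only other tested member whose libraries did not overlap between the sexes. Among all features, 50.2% did not overlap, 23.3% higher and 26.9% lower in males. It had 183, 189, 181 and 193 CPM in males at 18 °C, 167, 167, 163 and 175 CPM at 24 °C, and 170.1, 174 and 161.1 CPM at 28 °C. In females it had 121, 125, 123 and 123 CPM, then 133, 135, 144 and 128 CPM, then 124, 136, 139 and 138 CPM at these temperatures. Its difference was smaller than that of the 3 genes above, with a log2 value of 0.41 ± 0.03 (SE; edgeR adjusted p = 1.6e-11), 0.28 above the median of all features. VhaSFD, the gene for the regulatory H subunit, had the same log2 difference of 0.41 ± 0.05 (SE; edgeR adjusted p = 2.1e-08), with 265 to 313 CPM in males and 170.4 to 271 CPM in females.

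The accessory gene VhaAC45 (log2 0.32 ± 0.05 SE) and Vha26 (log2 0.15 ± 0.04 SE) were also called higher in males. With the TMM reference that gave the lowest value, the difference of Vha26 was -0.05 and that of VhaAC45 was 0.11, and neither was called. The 5 genes called lower in males were Vha100-4 (log2 -1.01 ± 0.27 SE), VhaAC39-1 (-0.43 ± 0.06), Vha68-2 (-0.34 ± 0.09), VhaM9.7-c (-0.21 ± 0.04) and Vha55 (-0.15 ± 0.04). In each of these 5 the libraries of the sexes overlapped when temperatures were pooled. VhaAC39-1, which encodes the d subunit under the c ring, spanned 172 to 261 CPM in males and 246 to 335 CPM in females, and Vha68-2 spanned 334 to 629.9 CPM in males and 460.2 to 787 CPM in females. The other 10 tested genes had log2 differences between -0.20 (Vha100-2) and 0.12 (Vha16-1) and were not called.

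**Figure D2:**
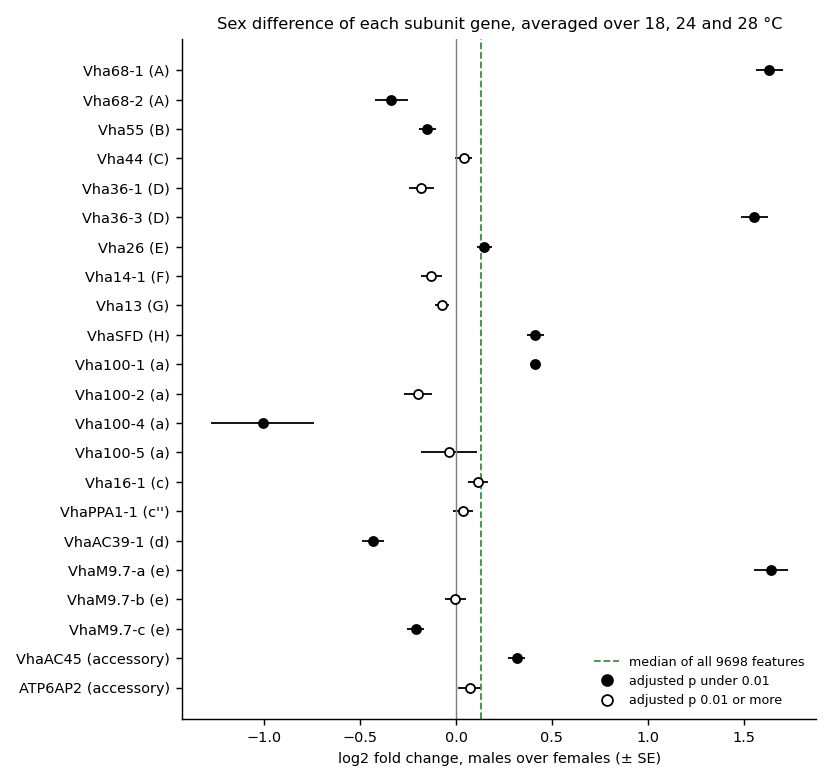
Log2 fold change of males over females for the 22 tested subunit genes, averaged over 18, 24 and 28 °C, with standard errors as bars. Filled points passed an adjusted p of 0.01 in edgeR's quasi-likelihood test, and the dashed line is the median of all 9698 features (0.13). Vha68-1, Vha36-3 and VhaM9.7-a lie near 1.6, and Vha100-4 lies at -1.01.

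VhaAC39-2, the second gene for the d subunit (chromosome 3R, 23158017 to 23159316), was under 1 CPM in every female library and above 6 CPM in every male library. Males had 150, 131, 113 and 140 counts at 18 °C (9.23, 7.71, 6.15 and 8.30 CPM), 235, 188, 163 and 166 counts at 24 °C, and 185, 120 and 174 counts at 28 °C. Females had 2, 2, 3 and 3 counts at 18 °C (0.0823, 0.0847, 0.129 and 0.124 CPM), 8, 12, 17 and 14 counts at 24 °C, and 19, 19, 15 and 17 counts at 28 °C. No female library reached the level of any male library, and female levels at 24 and 28 °C lay above all those at 18 °C. As a share of library totals, the male over female ratio was 63.5 at 18 °C (95% interval from exact binomial counting error 34.3 to 133), 17.5 at 24 °C (13.2 to 23.7) and 10.4 at 28 °C (8.09 to 13.6). These intervals cover counting error only.

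Fitted with no filter, VhaAC39-2 rose in females at 24 against 18 °C (log2 2.31 ± 0.39 SE, edgeR adjusted p = 0.00023) and at 28 against 18 °C (2.84 ± 0.37, edgeR adjusted p = 2.6e-06), from 2 or 3 counts per library at 18 °C. The change at 28 against 18 °C in males less that in females was -2.73 ± 0.43 (edgeR adjusted p = 9.6e-05), and in males alone the change was 0.11 ± 0.20. The 2 testis markers of 8 that were in the table, Mst98Ca and ocn, summed to 1160 to 2950 CPM in males and 7.38 to 13.3 CPM in females. In females that sum overlapped between the temperatures, with 7.52 to 11.4 CPM at 18 °C, 7.38 to 11.2 CPM at 24 °C and 9.51 to 13.3 CPM at 28 °C.

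Shares within a subunit class do not depend on the scaling between libraries, and are given as a description. A class total here holds only the measured genes. Vha68-3 (A), Vha36-2 (D) and VhaM9.7-d (e) are not counted in it, so shares of the full classes could be lower. Of the counts of the A subunit genes, Vha68-1 held 19.8 to 34.8% in males at 18 °C, 21.6 to 32.0% at 24 °C and 14.2 to 17.7% at 28 °C, against 6.74 to 10.5%, 6.48 to 8.37% and 4.28 to 4.92% in females. Of the D subunit genes, Vha36-3 held 13.6 to 29.2% in the male libraries and 4.11 to 9.71% in the female libraries. For the d subunit, VhaAC39-2 held 2.30 to 8.08% in males and 0.0334 to 0.275% in females, and for the e subunit VhaM9.7-a held 4.24 to 10.8% in males and 1.39 to 2.68% in females. In each of these 4 classes the sexes did not overlap. The major gene (Vha68-2, Vha36-1, VhaAC39-1 and VhaM9.7-b) held most of the counts of the measured genes in every library of both sexes.

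The a subunit, which is known to set where a pump is placed in the cell, had 4 measured genes and a more even split. Vha100-2 held 47.1 to 62.6% of the class in males and 56.9 to 65.5% in females, and Vha100-1 held 27.6 to 44.7% in males and 22.96 to 30.6% in females. The share of Vha100-1 was lower at 28 °C than at 18 °C without overlap in both sexes, at 27.6 to 29.2% against 33.5 to 44.7% in males and 22.96 to 25.4% against 28.4 to 30.6% in females. Vha100-5 and Vha100-4 shared the rest, and in females Vha100-5 held 10.1 to 15.8% at 28 °C against 5.48 to 7.07% at 18 °C. Vha100-4, known from the acid-secreting copper cells of the midgut, held at most 4.02% of the class.

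**Figure D3:**
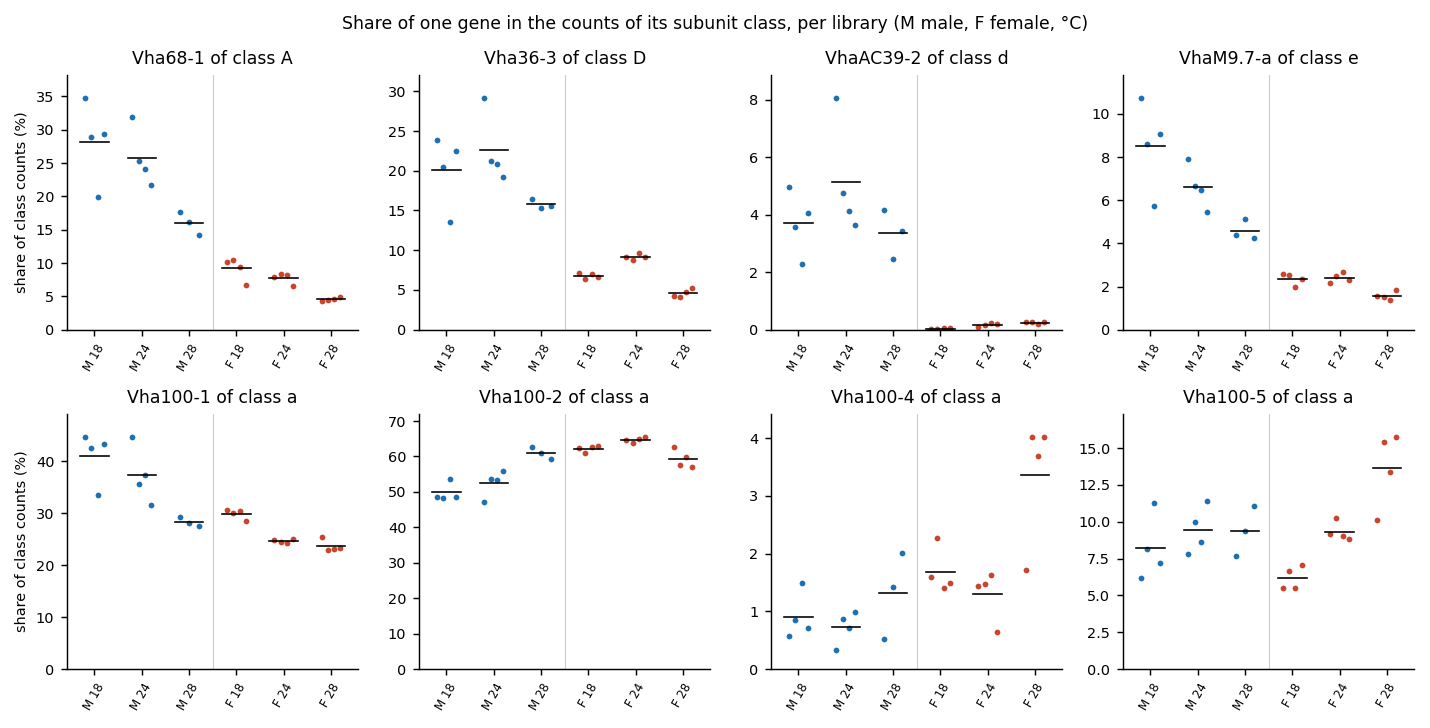
Share of one gene in the summed counts of the measured genes of its subunit class, in percent, for each library (vertical axes start at 0), by sex (M male, F female) and temperature in °C. Points are libraries and lines are group means. Vha68-1, Vha36-3, VhaAC39-2 and VhaM9.7-a hold a larger share in every male library than in any female library, and the share of Vha100-5 in females is largest at 28 °C (10.1 to 15.8%).

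The sex difference was also taken at each temperature. At 18 °C, 13 of the 22 genes were called, 11 higher and 2 lower in males (46.6% of all features were called higher and 36% lower). At 24 °C it was 10, of which 5 were higher and 5 lower in males (39.8% and 34.4% of all features), and at 28 °C it was 7, of which 5 were higher and 2 lower (35.1% and 36.6%). Over both directions, 82.5% of all features were called at 18 °C, 74.1% at 24 °C and 71.7% at 28 °C. The median of the 22 genes lay 0.07 above that of all features at 18 °C, 0.23 below it at 24 °C and 0.06 below it at 28 °C. Vha68-1, Vha36-3 and VhaM9.7-a were called higher in males at all 3 temperatures and in each of the 54 settings run. Of the other calls, 3 of 10 at 18 °C held in every setting (VhaSFD, VhaAC45 and Vha100-1), as did 4 of 7 at 24 °C (VhaAC39-1, Vha55, Vha100-2 and Vha68-2) and 1 of 4 at 28 °C (Vha100-1). At 18 °C the count of 13 was 10 with DESeq2, 9 with library totals, 8 to 13 over the TMM references, and 8 without female 18 °C library 1, 2 or 4. ATP6AP2, VhaPPA1-1, Vha44, Vha16-1 and Vha26 were called at 18 °C with 3, 3, 4, 7 and 9 of the 23 references. The count was 10 to 17 over the references at 24 °C and 5 to 11 at 28 °C, where it was 13 without the 3 libraries that stood apart. Averaged over temperatures, 14 genes were called between the sexes without the 3 libraries that stood apart.

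The second comparison, of 24 against 18 °C, is between flies of the same age. In females all 22 genes had a positive log2 change, with a median of 0.29 against 0.02 for all features, and 10 were called, all of them higher (24.5% of all features were called, 15.8% higher and 8.7% lower). In males none of the 22 was called (3.67% of all features were, 1.79% higher and 1.88% lower), while DESeq2 called 2. In males 4 genes had an unadjusted p under 0.05, and 17 had a negative change, with a median of -0.10. All 22 genes lay above the median of all features in females, and 5 of the 22 did so in males. These counts were the same with DESeq2 and library totals, which is no check, because scaling moves genes and median together. In 15 of the 22 genes no female library at 24 °C overlapped those at 18 °C, each time higher, against 22.3% of all features. Of all features called, 64.5% were higher at 24 °C in females with TMM, 43.5% with DESeq2 and 61.8% with library totals, and in males these shares were 48.9%, 36.4% and 66.9%.

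Vha16-1, the c subunit, had 2212, 2261, 2531 and 2074 CPM in females at 24 °C and 1634, 1689, 1676 and 1686 CPM at 18 °C. All libraries at 24 °C were higher, by a log2 change of 0.44 ± 0.09 (SE; edgeR adjusted p = 0.00070). The accessory gene VhaAC45 had 437, 438, 522 and 414 CPM at 24 °C and 318, 332, 337 and 336 CPM at 18 °C in females, again with no overlap (log2 0.45 ± 0.08 SE, edgeR adjusted p = 0.00020). The male values of VhaAC45 were 459, 498, 485 and 496 CPM at 24 °C and 517, 543, 597 and 505 CPM at 18 °C, so that all 4 libraries at 24 °C lay below those at 18 °C, with a change of -0.16 ± 0.08 that was not called. Of the male-high genes, Vha36-3 rose in females (log2 0.72 ± 0.12 SE, edgeR adjusted p = 0.000185), and its values in each library are given above.

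The paralog Vha100-5 rose in females at 24 against 18 °C by a log2 value of 1.00 ± 0.25 (SE; edgeR adjusted p = 0.0037). The other genes called higher in females were Vha68-2 (0.50), Vha100-2 (0.47), VhaSFD (0.39), Vha55 (0.36), Vha26 (0.33) and Vha44 (subunit C, 0.30). Calls for Vha36-3, VhaAC45 and Vha16-1 held in all 54 settings, while that for Vha68-2 held in 12. The count of 10 became 9 with DESeq2 and 5 with the TMM reference that gave fewest. It was 3 without female 18 °C library 1, 4 without female 18 °C library 2 or female 24 °C library 1, and 6 without female 24 °C library 3 or 4 or female 28 °C library 1 or 4.

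The difference between the sexes in this change was tested directly, a contrast added after the values were seen. It was negative in 21 of the 22 genes, with a median of -0.40 against -0.04 for all features, and 7 genes were called, all with a smaller or opposite change in males (15.8% of all features were called, 11% lower and 4.78% higher). The 7 were Vha36-3 (-0.65 ± 0.17 SE), VhaAC45 (-0.61 ± 0.11), Vha16-1 (-0.51 ± 0.12), Vha44 (-0.49 ± 0.10), VhaSFD (-0.44 ± 0.11), Vha26 (-0.40 ± 0.09) and Vha100-1 (-0.29 ± 0.07). For VhaAC45 the edgeR adjusted p was 0.00066 and the call held in all 54 settings. Of all features called in this contrast, 30.2% were higher with TMM, 43.6% with DESeq2 and 43.4% with library totals. The count was 1 without female 18 °C library 1 or 2, 2 without female 18 °C library 4 or female 24 °C library 1, 3 without female 24 °C library 3 or 4 or female 28 °C library 1 or 4, and 4 without male 24 °C library 3.

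Of 6 midgut markers, 5 were in the table (Jon65Aiii, Jon65Aiv, alphaTry, betaTry and Amy-p), and their summed level moved with the same contrast. In females it was 4215 to 6189 CPM at 24 °C against 1885 to 2538 CPM at 18 °C, with no overlap. In males it was 2126 to 7201 CPM at 24 °C against 2874 to 6733 CPM at 18 °C, with overlap. Without male 18 °C library 3, male 24 °C library 1 and female 28 °C library 1, an alternative chosen after seeing the data, 14 genes were called at 24 against 18 °C in females and 1 in males, and the contrast between males and females gave 8. The share of all features called in that fit is not given here, so these counts have no background beside them. The summed level of 6 Malpighian tubule markers was 387 to 689 CPM in males at 24 °C against 326 to 431 CPM at 18 °C, and 369 to 443 CPM in females at 24 °C against 249 to 338 CPM at 18 °C. The part of the midgut and the tubules in these changes was not tested.

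**Figure D4:**
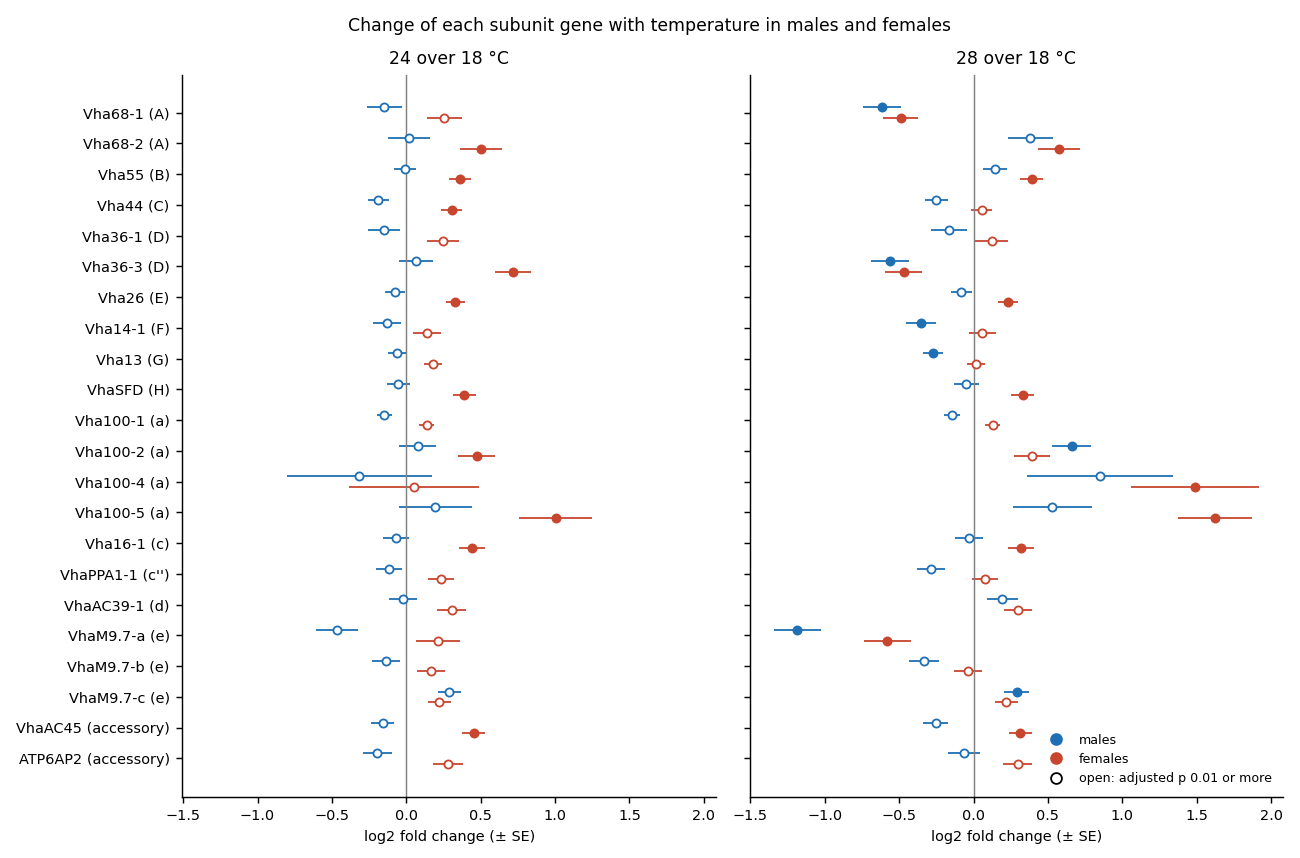
Log2 fold change of the 22 tested subunit genes at 24 over 18 °C (left) and at 28 over 18 °C (right), with standard errors as bars, in males (blue) and females (red). Filled points passed an adjusted p of 0.01 in edgeR's quasi-likelihood test. At 24 °C all 22 female values are above 0 and no male value is called. At 28 °C Vha68-1, Vha36-3 and VhaM9.7-a are called lower in both sexes.

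The third comparison is 28 against 18 °C, with flies 35 days old at 28 °C and 45 days old at 18 °C. Vha68-1, Vha36-3 and VhaM9.7-a, the male-high genes, were called lower at 28 °C in both sexes. They were the only genes called lower in females, where 8 others were called higher. In females 11 of 22 genes were called, 8 higher and 3 lower (38% of all features were called, 21.8% higher and 16.2% lower). The 22 genes had a median log2 change of 0.23, against -0.01 for all features, and 18 of 22 lay above the median of all features. That count was the same under each of the 3 scalings, which move genes and median together. In males 7 of 22 were called, 2 higher and 5 lower (30% of all features, 10.5% higher and 19.5% lower), and the median change was -0.11 against -0.08. Libraries at 28 and 18 °C did not overlap in 12 genes in males, 2 higher and 10 lower (17.3% and 29.1% of all features), and in 13 genes in females, 10 higher and 3 lower (23.5% and 20.1%).

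With the values given above, no library of Vha68-1, Vha36-3 or VhaM9.7-a at 28 °C reached any library of the same sex at 18 °C. Vha68-1 fell by 0.62 ± 0.13 on the log2 scale in males and by 0.49 ± 0.12 in females, and both calls held in all 54 settings (edgeR adjusted p = 0.000614 in males and 0.00187 in females). VhaM9.7-a fell by 1.18 ± 0.16 in males and by 0.58 ± 0.16 in females. Vha36-3 fell by 0.56 ± 0.13 in males and by 0.47 ± 0.12 in females. For none of the 3 was the difference between the sexes in this change called, with values of -0.13 ± 0.17 for Vha68-1, -0.60 ± 0.22 for VhaM9.7-a and -0.09 ± 0.18 for Vha36-3. The neuron marker sum was lower at 28 than at 18 °C in males without overlap, at 479.6 to 609 CPM against 611 to 776 CPM, and overlapped in females, at 177 to 253 CPM against 180.2 to 230.0 CPM, and its part in these falls was not tested.

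Vha100-5, a paralog of the a subunit on chromosome 2L (11738948 to 11744524), had the largest rise in females among the 22 genes that entered the tests. It had 49.6, 91.4, 80.0 and 93.2 CPM in females at 28 °C and 21.9, 27.6, 22.1 and 30.5 CPM at 18 °C. The libraries did not overlap, though female 28 °C library 1 was far below the other three, and the log2 change was 1.62 ± 0.25 (SE; edgeR adjusted p = 1.9e-05), called in all 54 settings. In males the 3 libraries at 28 °C had 44.7, 58.1 and 64.4 CPM and the 4 at 18 °C had 25.4, 36.1, 60.8 and 32.0 CPM. These overlapped through male 18 °C library 3, and the change of 0.53 ± 0.26 was not called. Its counts include divided reads in 21 of 23 libraries, and 527 bp of its exons overlap an antisense gene, asRNA:CR44144.

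Vha100-4 had 8.39, 23.7, 22.1 and 23.8 CPM in females at 28 °C and 6.29, 9.40, 5.63 and 6.43 CPM at 18 °C. It overlapped between the temperatures through female 28 °C library 1, and was called (log2 1.49 ± 0.43 SE, edgeR adjusted p = 0.0067), as in 36 of 54 settings. It lies 517 bp from Vha100-2 on chromosome 3R. The other 6 genes called higher in females at 28 °C were all taken as broadly expressed.

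Vha68-2 (subunit A) had 641, 765, 777 and 762 CPM in females at 28 °C and 460.2, 490.3, 463 and 566 CPM at 18 °C, with no overlap and a log2 change of 0.57 ± 0.14 (SE; edgeR adjusted p = 0.0023). Vha55 (subunit B) had 827, 910.2, 951 and 921 CPM at 28 °C and 659, 694, 651 and 751 CPM at 18 °C in females, again without overlap (log2 0.39 ± 0.08, edgeR adjusted p = 0.00023). Of the 3 measured genes of the ATP-splitting ring, these 2 thus stood higher in every female library at 28 °C, while Vha68-1 stood lower in every one. Vha16-1 had 1799.8, 2222, 2168 and 2132 CPM against the female values at 18 °C given above (log2 0.32 ± 0.09), and VhaAC45 had 352, 428, 434 and 431 CPM (0.31 ± 0.08), also with no overlap. VhaSFD (0.33 ± 0.08) and Vha26 (0.23 ± 0.07) were called as well. With the TMM reference that gave the lowest value, Vha26 had a log2 change of -0.001 and was not called.

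In males Vha100-2, the main gene of the a subunit by counts, rose. It had 364, 378 and 346 CPM at 28 °C and 199, 214, 290.2 and 216 CPM at 18 °C, with no overlap, and a log2 change of 0.66 ± 0.13 (SE; edgeR adjusted p = 0.00049), called in all 54 settings. VhaM9.7-c, a paralog of the e subunit, had 26.6, 32.2 and 30.99 CPM at 28 °C and 25.6, 24.9, 23.6 and 23.8 CPM at 18 °C in males (log2 0.29 ± 0.08). These did not overlap, and the gap between the nearest libraries was small.

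Of the genes that fell in males beside the 3 above, Vha14-1 (subunit F of the central stalk) had 81.3, 77.4 and 89.0 CPM at 28 °C and 101, 109, 119.8 and 92.1 CPM at 18 °C (log2 -0.35 ± 0.10, called in 15 of 54 settings). Vha13 (subunit G of the outer stalk) had 303, 268 and 315 CPM at 28 °C and 361, 368, 361 and 336 CPM at 18 °C (-0.27 ± 0.07, called in 25 of 54 settings). Neither overlapped between the temperatures. In females Vha13 had a change of 0.02 ± 0.06 that was not called, and with the TMM reference that gave the lowest value it was -0.22 and called.

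The counts at 28 against 18 °C changed when single libraries were left out, including libraries at 24 °C that are outside the comparison. In females the count of 11 was 6 with DESeq2 and 4 with library totals, 4 without female 18 °C library 1 or 4, female 24 °C library 1 or female 28 °C library 4, 5 without female 18 °C library 2 or female 28 °C library 1, 6 without female 24 °C library 4 or female 28 °C library 2, and 7 without female 28 °C library 3. Each fit without a library also set the TMM factors anew. Over all left-out libraries the median of all features in females ran from -0.25 to -0.004, and over the TMM references from -0.25 to 0.005. The part of a library's own values and that of the scaling in these counts were not separated. In males the count of 7 was 4 without male 28 °C library 2. Without the 3 libraries that stood apart it was 10 in males and 15 in females. Of all features called, 57.3% were higher at 28 °C in females with TMM, 36.5% with DESeq2 and 38.5% with library totals, and in males these shares were 34.9%, 43.6% and 49.8%. Midgut markers summed to 7228 to 8648 CPM in males at 28 °C against 2874 to 6733 CPM at 18 °C, and to 4239 to 7401 CPM in females at 28 °C against 1885 to 2538 CPM at 18 °C. Malpighian tubule markers summed to 509 to 646 CPM in males at 28 °C against 326 to 431 CPM at 18 °C, and to 585 to 752 CPM in females at 28 °C against 249 to 338 CPM at 18 °C. The female fat body markers Yp1, Yp2 and Yp3 summed to 44096 to 51633 CPM in females at 28 °C against 4348 to 10103.5 CPM at 18 °C. The part of the midgut, the tubules and the fat body in these changes and in the scaling was not tested.

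The change at 28 against 18 °C in males less that in females was called for 2 of 22 genes (20% of all features, 13.8% lower and 6.11% higher). Of the features called, 30.6% were higher with TMM, 59.5% with DESeq2 and 65.5% with library totals. VhaAC45 had -0.57 ± 0.11 (SE; edgeR adjusted p = 0.00073) and Vha100-1 had -0.27 ± 0.07 (edgeR adjusted p = 0.0080). In males VhaAC45 had 449, 442 and 468 CPM at 28 °C, all below the 4 libraries at 18 °C, while all female libraries at 28 °C were above those at 18 °C. The same 2 genes were called for the product of temperature and sex in a linear model in degrees (13.1% of all features were called, 8.89% lower and 4.18% higher). Its temperature term, the slope in females, was called for 5 genes, all of them positive (29.8% of all features, 19% positive and 10.7% negative): Vha100-5, Vha68-2, Vha55, VhaSFD and VhaAC45. Only Vha100-5 was called with all 23 TMM references, against 14 for Vha55, 11 each for Vha68-2 and VhaSFD and 7 for VhaAC45, and the count ran from 1 to 8 over the references. It was 4 with DESeq2, of which 2 were negative, and 1 with library totals. The count was 1 without female 18 °C library 1 or 2, female 24 °C library 4 or female 28 °C library 1 or 4, 2 without female 18 °C library 3 or female 24 °C library 1, 3 without female 18 °C library 4 and 9 without male 24 °C library 1. For the difference between the sexes at 28 against 18 °C, the call of VhaAC45 held in 39 of 54 settings and that of Vha100-1 in 11, and the value of Vha100-1 without female 18 °C library 1, 2 or 4, female 24 °C library 1 or 4, or female 28 °C library 4 lay between 0.00 and 0.02, and without female 28 °C library 1 it was -0.00. None was called without those 6 libraries, each left out alone, or with library totals, and leaving out male 18 °C library 3, male 24 °C library 1 and female 28 °C library 1 together gave 11. A single gene was called without female 18 °C library 3, female 24 °C library 2, female 28 °C library 2 or 3, male 18 °C library 2 or 4, male 24 °C library 2, or any 1 of the 3 male libraries at 28 °C, while 4 were called without female 24 °C library 3.

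Between 28 and 24 °C, where age differs too, 4 of 22 genes were called in females, all lower at 28 °C (27.6% of all features, 15.5% lower and 12.1% higher). They were Vha36-3 (log2 -1.19 ± 0.12 SE), VhaM9.7-a (-0.79 ± 0.16), Vha68-1 (-0.75 ± 0.12) and Vha44 (-0.25 ± 0.07). In males 3 were called, Vha36-3 (-0.63 ± 0.13) and VhaM9.7-a (-0.72 ± 0.16) lower and Vha100-2 (0.58 ± 0.13) higher (11.4% of all features, 7.46% lower and 3.95% higher), and the count was 1 without male 24 °C library 1 or male 28 °C library 1 or 2. Without the 3 libraries that stood apart, 3 were called in males and 5 in females. Vha36-3 in females therefore had its highest level at 24 °C, with no overlap with either other temperature. The female calls of Vha36-3, VhaM9.7-a and Vha68-1 held in all 54 settings. Of all features called, 43.8% were higher at 28 °C in females with TMM, 32.5% with DESeq2 and 25.1% with library totals, and in males these shares were 34.6%, 51.4% and 40.1%.

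The subunits of the common pump also varied together among libraries of one group. For 16 broadly expressed genes, those left after setting aside Vha68-1 and VhaM9.7-a on seeing their values, deviations of log2 CPM from the group mean had a median pairwise correlation of 0.74 over the 23 libraries (120 pairs of genes, 0.09 to 0.97). These values share libraries and their scaling, and are a description, with no such value for all features beside them. The paralogs Vha100-4 and Vha100-5 followed them too, with median correlations to the 16 of 0.74 and 0.78, and Vha68-1 had 0.30. Vha36-3, VhaM9.7-c, VhaM9.7-a and VhaAC39-2 did not follow them, with 0.05, 0.12, -0.06 and -0.24. The spread within groups was largest for Vha100-4 (SD 0.59 on the log2 scale) and Vha100-5 (0.32), and smallest for Vha100-1 (0.05).

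The summed level of the 16 genes was 6778, 7346, 8307 and 6954 CPM in males at 18 °C, 6061, 7223, 7014 and 7589.8 CPM at 24 °C, and 7169, 7257 and 7339.8 CPM at 28 °C. In females it was 5882, 6091, 6082 and 6287 CPM at 18 °C, 7629.8, 7769.8, 8716 and 7272 CPM at 24 °C, and 6575, 7764, 7757 and 7592 CPM at 28 °C. Females at 18 °C lay below every other group except for male 24 °C library 1. The library with the highest male sum, male 18 °C library 3, had 6733 CPM of midgut markers against 2874 to 4242 CPM in the rest of its group. The lowest in males, male 24 °C library 1, had 2126 CPM against 5248 to 7201 CPM, and female 28 °C library 1 had 4239 CPM against 6736 to 7401 CPM.

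Deviations of single genes from their group means followed the midgut sum most closely for Vha16-1 (r = 0.93), Vha36-1 (0.91) and Vha68-2 (0.90), over 23 libraries. With the sum of the 2 testis markers the same 3, picked for their midgut values, had correlations of -0.78, -0.81 and -0.80. In the 12 female libraries that sum was only 7.38 to 13.3 CPM, so deviations there are those of a very low level. Its lowest and highest male values were in male 18 °C library 3 (1160 CPM) and male 24 °C library 1 (2950 CPM). Correlations without these libraries are not given. For Vha68-1, VhaM9.7-a and Vha36-3 the correlation was 0.12, -0.27 and -0.20 with the midgut sum, and 0.80, 0.73 and 0.59 with the neuron sum. With roX1, an RNA of male dosage compensation, the correlations of these genes were 0.64, 0.65 and 0.74. The level of roX1 was only 2.34 to 8.42 CPM in females. These are descriptions across libraries that share depth and scaling.

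**Figure D5:**
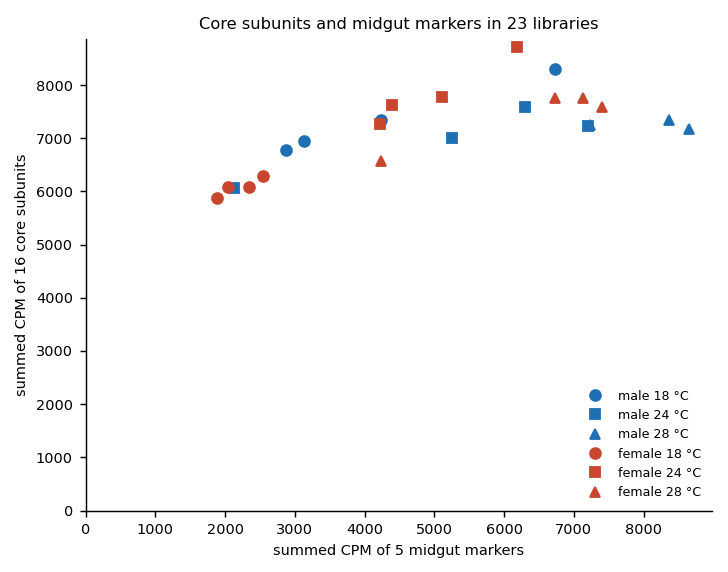
Summed CPM of 16 broadly expressed V-ATPase subunit genes against the summed CPM of 5 midgut markers, 1 point per library, by sex (blue male, red female) and temperature (circle 18 °C, square 24 °C, triangle 28 °C). Both axes start at 0. The 4 female libraries at 18 °C lie at the low end of both axes (5882 to 6287 and 1885 to 2538 CPM).

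Other genes tied to the pump were counted from lists. VhaAC45RP, a second gene of the VhaAC45 type listed under the name CG31030, was higher in males too: it had 25.2 to 50.9 CPM in males and 8.01 to 16.6 CPM in females (log2 1.65 ± 0.07 SE, edgeR adjusted p = 2.8e-15), and fell at 28 against 18 °C in males (-0.81 ± 0.13), while its change in females (-0.24 ± 0.13, edgeR adjusted p = 0.12) was not called. Of 5 genes for assembly and regulation of the pump, 1 was higher and 3 lower in males, against 47.2% and 39.5% of all features. Mitf, the fly gene of the MITF and TFEB family, which is known to activate subunit genes, had 71.2 to 93.6 CPM in males and 158 to 233 CPM in females (log2 -1.20 ± 0.04, edgeR adjusted p = 1.3e-16). At 28 against 18 °C Mitf fell in males (-0.33 ± 0.08) and changed by 0.17 ± 0.07 in females, which was not called.

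Of 12 lysosome genes, 7 were higher and none lower in males, where ClC-b, CtsB, CtsL1, Ppt1 and Trpml were not called (86.7% of all features were called). At 28 against 18 °C, 5 were higher in males and none lower, against 10.5% and 19.5% of all features. In females 7 were higher and 1 lower, against 21.8% and 16.2% of all features. Gba1b, a glucocerebrosidase, had the largest rise of the 12, by 1.26 ± 0.17 in males and 2.02 ± 0.17 in females, and Lamp1, a lysosomal membrane protein, rose by 0.53 ± 0.09 in males and 0.57 ± 0.08 in females. Of 6 tested Ragulator and Rag genes, which link the lysosome to mTOR, 3 were higher and 2 lower in males. At 28 against 18 °C 1 was higher in males and none was called in females, where 38% of all features were.

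Reads of some members may be shared. Vha44, VhaPPA1-1 and Vha100-5 had counts that were not whole numbers, which means that the authors' counting divided reads among features. Exons of Vha44 overlap 148 bp of Hmgs, those of Vha100-4 overlap 47 bp of cona and those of Vha100-1 overlap 11 bp of Alg13, all on the opposite strand. Whether the library preparation kept strand is not given in the sources used here, so values of these genes are uncertain to that extent.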

How the data were processed

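Each library is poly-A RNA from a pool of 10 whole flies, sequenced as paired reads of 100 bp. The authors filtered reads with SOAPnuke, assembled transcripts with HISAT, StringTie and Cufflinks tools, aligned reads to the transcripts with Bowtie2 and counted with RSEM. The deposited values are RSEM expected counts per gene with no normalization, in which reads that fit several genes are divided, and 23.2% of values were not whole. The submitters' processing notes name dm6, and tool versions are not given in the sources used here. The table held 11152 features and no value of 0.

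Expected counts were rounded and tested in R 4.3.3 with edgeR 4.0.16 (TMM, quasi-likelihood test, Benjamini-Hochberg adjustment over all features tested, threshold 0.01; the 9698 features tested had 0.5 CPM or more in all libraries), in 1 model of 6 group means over 23 libraries. Nothing in the sources says how the pools of a group were separated, so p-values measure the spread between these libraries. VhaAC39-2 was fitted with no filter. The common biological coefficient of variation was 0.141. The script was tested on simulated data. Genes were chosen by symbol, and lengths, neighbours and overlaps come from the BDGP6.54 annotation, the same assembly. Symbols were updated by gene ID for 11073 features. Figures were drawn with matplotlib 3.10.9.

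The members and lists were chosen with earlier results of these data known. Values in every library are given for members called between the sexes or between 28 and 18 °C whose libraries did not overlap, up to the 5 largest in each direction, and for members under the minimum. Vha100-4 was added after its values were seen. Alternatives were DESeq2 1.42.0, library totals, each library as TMM reference, 2 other filters, a replicate block, only the groups compared, a Poisson model on rounded CPM for the linear model, and leaving out each library. The test of the difference between the sexes at 24 against 18 °C, and the joint removal of 3 libraries, were added after seeing the data.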

Additional observations from a re-analysis of the deposited data

Results flagged for a closer look

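In groups of 4 libraries, the library at one end of a group was far from the others in 9 of 115 comparisons of 23 genes and 5 groups, where chance gives about 1 in 20. Of these 9, female 28 °C library 1 was the lowest of its group in 7: Vha68-2 (641 CPM), Vha44 (242 CPM), Vha36-1 (148 CPM), Vha13 (308 CPM), Vha100-4 (8.39 CPM), VhaAC45 (352 CPM) and ATP6AP2 (213 CPM). The others were the highest male 18 °C value of ATP6AP2 (306 CPM, library 3) and the lowest male 24 °C value of Vha26 (712 CPM, library 1). The summed midgut markers of these 3 libraries stood at the same end of their groups, and their part was not tested.

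Several genes were called for a different effect of temperature in males and females. Among the 22 tested genes, no such call at 28 against 18 °C held in all 54 settings. At 24 against 18 °C only that of VhaAC45 did. The other calls at 24 °C held in 22 settings for Vha100-1, 28 for VhaSFD, 34 for Vha16-1, 35 for Vha26, 39 for Vha36-3 and 50 for Vha44. For 28 against 18 °C, the change in males less that in females was -0.57 for VhaAC45, -0.27 for Vha100-1 and, with no filter, -2.73 for VhaAC39-2, which rests on 2 or 3 counts in each female library at 18 °C. For 24 against 18 °C it was -0.65 for Vha36-3, -0.44 for VhaSFD, -0.61 for VhaAC45, -0.49 for Vha44, -0.40 for Vha26, -0.29 for Vha100-1, -0.51 for Vha16-1 and, with no filter, -1.83 for VhaAC39-2.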

How the results depend on the processing

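Results were recomputed under other scalings, filters and sample sets. Counts of calls in this section have no share of all features called in the same fit beside them, and are a description. Of the calls between the sexes, Vha68-1, Vha36-3, VhaM9.7-a, Vha100-1, VhaSFD, VhaAC39-1, Vha68-2, VhaM9.7-c, Vha55 and Vha100-4 held in all 53 settings. With DESeq2 the count called was 6 for 28 against 18 °C in females, 2 for 24 against 18 °C in males, 1 for the difference between males and females at 28 against 18 °C and 0 for the linear model's product term. With library totals these were 4 for 28 against 18 °C in females, 0 and 3 for the differences at 28 and at 24 against 18 °C, and 0 for the product term. Over the TMM references the count went as low as 4 for 28 against 18 °C in females, 5 for 24 against 18 °C in females, 0 and 1 for the differences at 28 and at 24 against 18 °C and 0 for the product term, and as high as 11 for 28 against 18 °C in males and 1 for 24 against 18 °C in males. With only the groups compared, 3 were called for 28 against 18 °C in males and 1 for the difference. Without the 3 libraries that stood apart, 11 were called for the difference at 28 against 18 °C and 1 for 24 against 18 °C in males. A Poisson model gave 4 for the product term.

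Leaving out 1 library gave 12 to 15 calls for sex, 4 to 14 for females and 4 to 9 for males at 28 against 18 °C, 3 to 11 for females and 0 to 1 for males at 24 against 18 °C, 3 to 6 for females and 1 to 4 for males at 28 against 24 °C, 0 to 4 and 1 to 8 for the differences at 28 and 24 against 18 °C, and 0 to 2 for the product term.

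Many signs turned with the TMM reference, and not all are listed here. The lowest values for sex were -0.054 for Vha26, -0.16 for Vha44, -0.16 for VhaPPA1-1, -0.13 for ATP6AP2 and -0.086 for Vha16-1. Those for 28 against 18 °C in females were -0.22 for Vha13, -0.18 for Vha44, -0.17 for Vha14-1 and -0.16 for VhaPPA1-1. There Vha36-1 had -0.11, Vha100-1 -0.10, VhaM9.7-c -0.0086 and Vha26 -0.0013. For the difference Vha100-1 had a highest value of 0.033. Over left-out libraries Vha13 ranged over -0.20 to 0.039 in females and Vha100-1 over -0.30 to 0.015 for the difference. The cause was not tested.

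The labels do not say whether a replicate number marks a shared batch. Same-numbered libraries of 2 groups had correlations of deviations of -0.43 to 0.63 (median 0.09, 55 pairs), against a median of -0.03 for other numbers. Such values do not settle whether the numbers pair the libraries. With the number as a replicate block, counts were 14 for sex, 14 in females and 9 in males at 28 against 18 °C, 11 in females and 0 in males at 24 against 18 °C, 5 in females and 4 in males at 28 against 24 °C, 2 and 9 for the differences at 28 and 24 against 18 °C, and 1 for the product term. Per kilobase, the share of Vha68-1 in its class was 14.5 to 35.5% in males and 4.41 to 10.8% in females. Depth limits VhaAC39-2 most, with 2 or 3 counts in each female library at 18 °C.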
